A study of Mus musculus with 31 samples.

Results

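The genes described here are Rad21, the kleisin subunit of cohesin, and 9 genes whose products form cohesin with it or load, unload, hold or stop the ring on DNA. They were chosen by name as Rad21, Smc1a, Smc3, Stag1, Stag2, Nipbl, Wapl, Pds5a, Pds5b and Ctcf, which are 10 of the 20544 gene symbols in the count table, and all 10 were among the 8571 genes with enough counts to be tested. Mouse embryos at the 2-cell stage, obtained by in vitro fertilization, were sequenced one by one, each as its own library, with Smart-seq3 after 19 cycles of PCR. The question was whether starving sperm of energy substrates and then returning them, called sperm energy restriction and recovery (SER), was followed by other RNA levels in the embryo.

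Sperm of wild-type C57BL/6J males aged 12 to 14 weeks, taken from the cauda epididymis, fertilized oocytes of superovulated CD1 females aged 8 to 10 weeks. In the SER group, sperm were held in a medium without energy substrates until motility was lost, after 15 to 45 min, and were then given complete medium, whereas control sperm stayed in complete medium throughout. Sperm and oocytes were left together for 4 h, and embryos were collected 32 h after insemination, 16 from control and 15 from SER sperm. All embryos thus shared the CD1 oocyte, the C57BL/6J father's strain and culture in vitro, and no label ties an embryo to its male, its female or one of the study's several batches. By the paper's methods, the epididymides of a male were split between control and SER medium, so embryos of both groups can share a male. No term for batch or male could therefore be fitted, and the tests do not use that pairing. The part of batch in any difference was not tested, and p-values measure the spread between embryos that may share parents or a dish. Total counts ran from 532945 to 2085222 in control and from 642321 to 3088396 in SER embryos.

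The labels name 2-cell embryos, and the markers bore this out for most libraries but not for all. The 10 oocyte markers summed to between 5934 and 16947 CPM, counts per 1000000 counts of the library, in every embryo, whereas the 10 sperm markers summed to at most 69.2 CPM. The 10 cumulus cell markers summed to 1570 CPM in control embryo 5, against a median of 22.6 CPM over control embryos and at most 18.9 CPM in SER embryos. Cyp11a1, a steroid synthesis enzyme, made up 1423 CPM of that sum, and only 5 of the 10 markers had a count there. The highest values in any embryo were 120 CPM for Inhba, 21.5 CPM for Star and 12.1 CPM for Cyp19a1. Has2, Ptx3, Tnfaip6, Ptgs2, Amh and Fshr stayed under 10 CPM in all embryos. Whether cumulus cells came with control embryo 5 was not tested. In 3 embryos the whole profile stood apart, since the median Spearman correlation with the other embryos was 0.534 in control embryo 3, 0.447 in control embryo 4 and 0.409 in SER embryo 15, against 0.656 to 0.829 in the remaining 28. The 10 markers of zygotic genome activation summed to 42.2 CPM in control embryo 4 and 130 CPM in SER embryo 15, below the lowest of those 28 embryos at 289 CPM. In control embryo 3 they summed to 1571 CPM, above the highest of the 28 at 1370 CPM. Results are given below with and without these 3 embryos where they rest on them. Values also ran in part with the replicate number. Control embryos 1 to 4 and SER embryos 1 to 3 were all below 0 on the second principal component, while control embryos 5 to 16 were all above it. SER embryos 13 and 15 were below 0 as well, at -0.221 and -31.3, and the remaining SER embryos were above it. Whether the replicate numbers follow the study's batches was not tested. Results without control embryos 1 to 4 and SER embryos 1 to 3 are given for a part of the genes.

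Cohesin is a ring of the ATPases SMC1A and SMC3 closed by the kleisin RAD21, with a STAG subunit bound to the kleisin. NIPBL loads the ring and drives the extrusion of DNA loops, WAPL with PDS5A or PDS5B opens the ring and releases it from chromatin, and CTCF bound to its motif stops a moving ring. The complex holds sister chromatids together until division and folds interphase chromosomes into loops and domains, which are weak in the zygote and become clearer through the cleavage stages. The maternal store of these RNAs is degraded in part during the 2-cell stage while the embryo begins its own transcription, so a level at this stage can hold RNA of either source. CPM is a share of the counted RNA, so a smaller amount of one RNA and a larger amount of the rest cannot be told apart.

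Rad21, at chr15:51962240-51991747 on the minus strand of GRCm38, was measured at 193 ± 50.2 CPM (SD, n = 16) in control and 312 ± 108 CPM (SD, n = 15) in SER embryos. The lowest, median and highest values were 64.9, 190 and 287 CPM in control embryos and 104, 323 and 490 CPM in SER embryos. The groups overlapped, but all 16 control embryos lay under the SER median, and 9 of 15 SER embryos lay above the highest control embryo. The highest SER levels, between 407 and 490 CPM, were those of embryos 1, 2, 4 and 10, and SER embryos 8 and 15 were the only members of their group under the control median. The log2 fold change of SER over control was 0.64 ± 0.19 (SE, 95% interval 0.25 to 1.04). Its unadjusted p in edgeR's quasi-likelihood test was 0.00211, the 40th smallest of 8571, and the Benjamini-Hochberg adjusted p was 0.403, which did not pass the threshold of 0.1. The study named Rad21 on these same embryos, so its difference is a description of the data that chose it and no independent evidence.

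**Figure D1:**
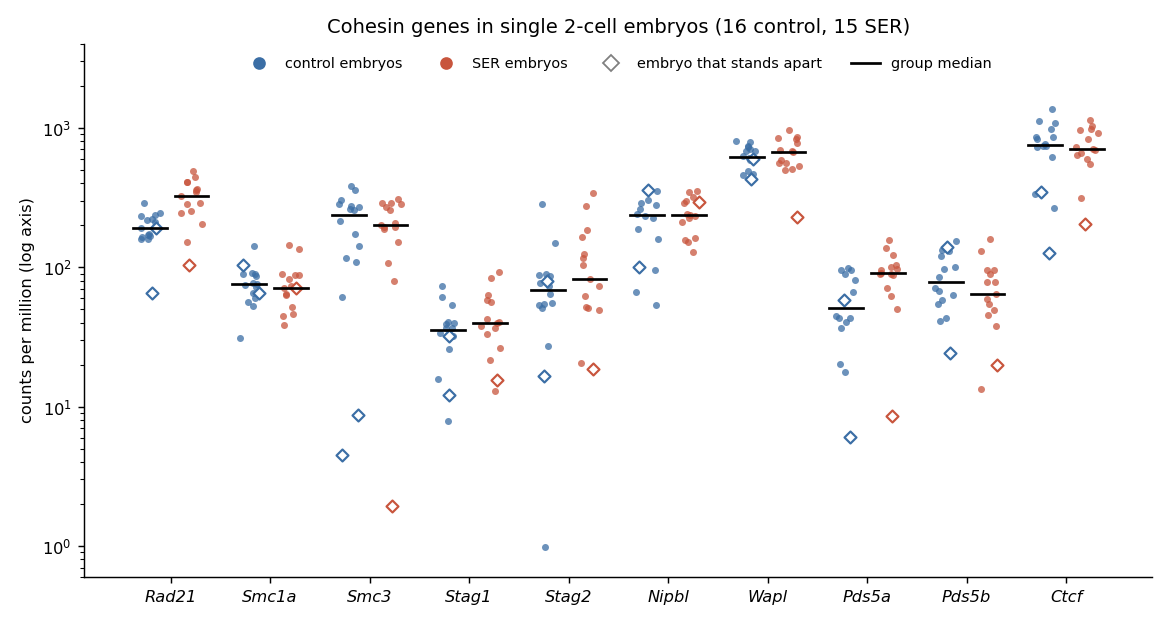
CPM of each gene in each embryo on a log axis, with control in blue and SER in red, black bars at the group medians and open diamonds for the 3 embryos whose profiles stand apart. The Rad21 medians are 190 CPM in control and 323 CPM in SER embryos, Smc3 lies between 1.95 and 8.78 CPM in the 3 diamonds, and a single control embryo has Stag2 at 0.984 CPM.

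No gene passed an adjusted p of 0.1 in edgeR (0% of the genes tested), so none of the 10 genes did. At an unadjusted p under 0.05, edgeR gave 491 of 8571 genes, 5.73% of those tested, and 187 of them, 2.18%, were higher in SER embryos. Of the cohesin genes Rad21 and Pds5a were below 0.05, both higher in SER embryos. The estimate was above 0 for 6 of the 10 genes and for 52.7% of all genes tested, and the median log2 fold change was 0.07 over the 10 genes and 0.02 over all. Without the 3 embryos that stood apart, edgeR again called 0 genes at an adjusted p of 0.1 (0%, with 565 at an unadjusted p under 0.05), and the Rad21 log2 fold change was 0.66. Without control embryos 1 to 4 and SER embryos 1 to 3, edgeR called 1 of 8149 genes, 0.0123%, which was none of the 10, and 488 had an unadjusted p under 0.05. The Rad21 log2 fold change was then 0.59 (edgeR adjusted p = 0.538).

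Other tests of the same counts did not agree on Rad21. It passed the threshold of 0.1 in limma voom with quality weights for each embryo (log2 fold change 0.72, adjusted p = 0.0123), in edgeR with 3 clusters of embryos estimated from the counts as a covariate (0.64, adjusted p = 0.0683) and in edgeR on all genes with a count (0.67, adjusted p = 0.0989). These called 9.89%, 0.478% and 2.83% of all genes tested, 848, 41 and 504 genes. DESeq2 did not call it (0.63, adjusted p = 0.135) among its 29 called genes, 0.338% of those tested. Without the 3 embryos that stood apart, DESeq2 did (0.65, adjusted p = 0.0593) among 20 genes, 0.235%, and so did limma voom (0.71, adjusted p = 0.0100) among 998 genes, 11.7%. The estimate stayed above 0 in all 18 alternatives and in all 31 fits that left out 1 embryo, where it ran from 0.59 to 0.70 with edgeR adjusted p between 0.170 and 0.675.

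**Figure D2:**
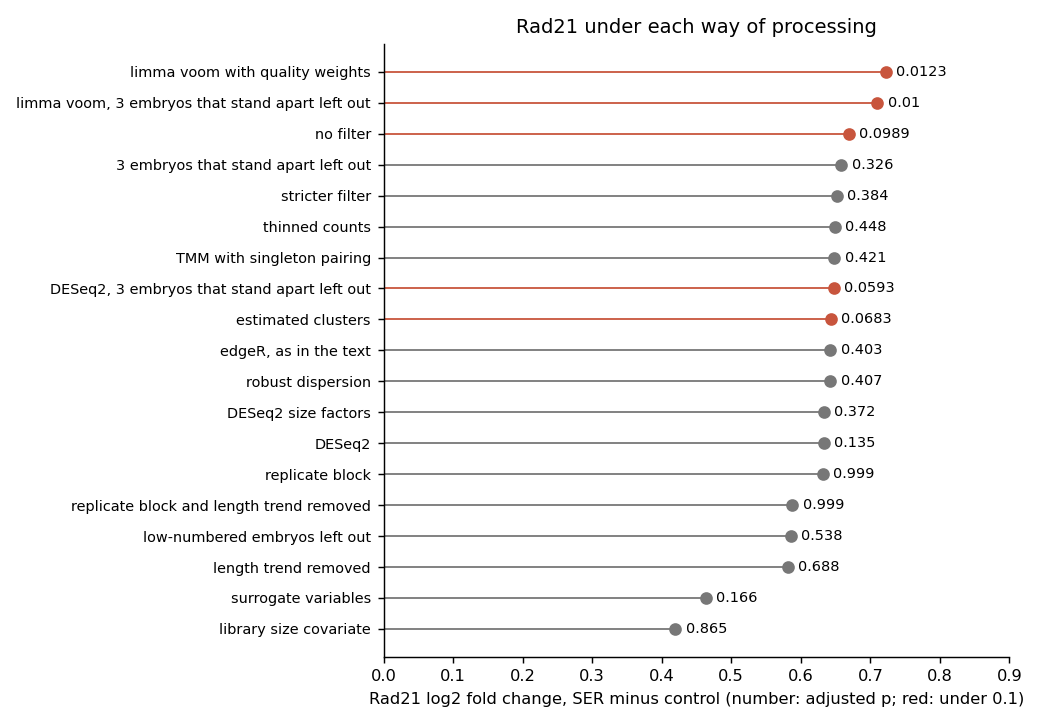
The Rad21 log2 fold change of SER over control in edgeR and under 18 alternatives, each point with its adjusted p beside it and red where that p is under 0.1. The estimates run from 0.42 with the library size as a covariate to 0.72 with limma voom, and 5 of the alternatives pass.

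Library size moved with both Rad21 and the group. The median total count was 955806 in control and 1375560 in SER embryos, and with the log2 library size as a covariate the Rad21 log2 fold change was 0.42 in edgeR (adjusted p = 0.865). Over all 31 embryos, log2 CPM of Rad21 and log2 total count gave Pearson's r of 0.525 (permutation p = 0.00217, adjusted over 3 relations 0.00651) and Spearman's rho of 0.547 (permutation p = 0.00174, adjusted 0.00522). The relation did not pass an adjusted p of 0.1 in 16 control embryos, with r of 0.418 (permutation p = 0.0992, adjusted 0.149) and rho of 0.347 (permutation p = 0.186, adjusted 0.186). In 15 SER embryos r was 0.376 (permutation p = 0.169, adjusted 0.169), which did not pass. Spearman's rho there was 0.504 (permutation p = 0.0588, adjusted 0.0882), which was under 0.1. Without the 2 libraries farthest from the median size, r was 0.650 over all embryos, 0.316 in control and 0.0928 in SER embryos. Spearman's rho was then 0.649 over all embryos, 0.196 in control and 0.308 in SER embryos. After thinning of all libraries to an equal total, the Rad21 log2 fold change was 0.65.

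The SMC partners of RAD21 in the ring did not differ between the groups beyond their spread. Smc1a, the X-linked ATPase gene at chrX:152016428-152062694, had lowest, median and highest values of 31.3, 75.6 and 141 CPM in control and 38.7, 70.9 and 145 CPM in SER embryos. These ranges nearly coincide, and the log2 fold change was -0.04 ± 0.21 (SE, 95% interval -0.46 to 0.39). Smc3, the gene of the other ATPase at chr19:53600398-53645833, ran from 4.53 through a median of 236 to 381 CPM in control embryos and from 1.95 through 201 to 308 CPM in SER embryos. Its mean was 201 ± 117 CPM (SD, n = 16) in control and 202 ± 87.9 CPM (SD, n = 15) in SER embryos, a log2 fold change of -0.0027 ± 0.40 (SE, 95% interval -0.82 to 0.81). Without the 3 embryos that stood apart, the Smc3 means were 229 ± 96.2 CPM (SD, n = 14) in control and 216 ± 70.9 CPM (SD, n = 14) in SER embryos, and the log2 fold change was -0.10.

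Smc3 was nearly absent from exactly the 3 embryos whose profiles stood apart. Control embryos 3 and 4 and SER embryo 15 held 9, 3 and 5 Smc3 counts, or 8.78, 4.53 and 1.95 CPM, whereas the remaining 28 embryos ran from 61.2 to 381 CPM with a median of 236 CPM. It was the only one of the 10 genes that lay below all 28 in each of the 3 embryos, as did 359 of the 8571 tested genes, 4.19%. The embryos were picked by their whole profile, so values outside the range of the others are part of how they were chosen.

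Ctcf, Rad21, Wapl and Pds5a were below the range of the 28 embryos in some of the same libraries. With Smc3, 2 of the 10 genes were below it in control embryo 3, 4 in control embryo 4 and 5 in SER embryo 15, where 17.3%, 19.9% and 20.5% of all tested genes were. Ctcf was at 127 CPM in control embryo 3 and 206 CPM in SER embryo 15, below the other 28 embryos at 265 CPM or more, and at 346 CPM in control embryo 4. Low Ctcf was also found in embryos that did not stand apart, since control embryos 1 and 2 were at 265 and 334 CPM while control embryos 5 to 16 were all at 623 CPM or more. Rad21 was at 64.9 and 104 CPM in control embryo 4 and SER embryo 15, below the others at 153 CPM or more, but at 190 CPM in control embryo 3. In the same pair of embryos, Pds5a was at 6.04 and 8.57 CPM against at least 17.7 CPM, and Wapl was at 429 and 228 CPM against at least 436 CPM. Nipbl went the other way, with 361 CPM in control embryo 4, above all 28 others. Smc1a, Stag1, Stag2 and Pds5b stayed within the range of the 28 in all 3 embryos.

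The promoters of Smc3, Ctcf and Pds5b are shown because the windows around their RefSeq starts share a short sequence. Smc3 and Ctcf were also both low in 2 of the 3 embryos that stood apart. RefSeq promoter windows on GRCm38.p6, from 250 bases before to 50 bases after the start, were at hand for 7 of the 10 genes. The letters GCCATNTTG, the core of the motif bound by the zinc finger factor YY1, were searched on both strands. They occur in 3 of the 7 windows, each time on the strand of the gene, and in 2.51% of the 32851 windows of all genes. Counted from the RefSeq start, the match begins at the start base in Smc3, 10 bases after it in Ctcf and 37 bases before it in Pds5b. The gene positions given elsewhere are those of GENCODE, which begin at 53600398, 105636568 and 150673739. Against these, the Ctcf match lies before the gene and the Pds5b match inside it, so its place depends on the annotation. Below are the 100 bases before the start and 30 bases from it on, at chr19:53600296-53600425, chr8:105636438-105636567 and chr5:150673727-150673856, all on the plus strand, with the match in capitals.
Smc3: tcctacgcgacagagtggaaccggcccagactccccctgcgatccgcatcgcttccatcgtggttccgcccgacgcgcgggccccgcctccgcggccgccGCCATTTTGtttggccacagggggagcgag
Ctcf: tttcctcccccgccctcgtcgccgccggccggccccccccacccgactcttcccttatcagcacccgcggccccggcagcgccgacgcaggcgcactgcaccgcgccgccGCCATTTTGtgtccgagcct
Pds5b: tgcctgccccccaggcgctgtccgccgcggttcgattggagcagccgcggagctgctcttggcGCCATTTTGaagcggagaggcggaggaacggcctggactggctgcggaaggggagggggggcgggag
A match of letters is a description and not a bound site, and no test was made of these shares. The GC box GGGCGG was in all 7 windows and in 35.7% of all windows, and CCAAT was in 4 of the 7, Smc1a, Stag1, Wapl and Pds5b, and in 37.4% of all. Yy1 itself, named here after its values were seen, was at 50.7, 10.6 and 7.01 CPM in the 3 embryos, below the other 28 at 99.4 CPM or more. Of the 8571 tested genes 359, 4.19%, were likewise below all 28 in each of the 3. The part of Yy1 in the other levels was not tested. Pds5b, which holds the same letters, was at 139, 24.1 and 19.9 CPM there and so inside the range of the others, 13.5 to 160 CPM.

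The STAG subunits, of which a ring carries either STAG1 or STAG2, spread widely between embryos of each group. Stag1, at chr9:100597798-100959375, ran from 7.83 through a median of 35.2 to 73.7 CPM in control and from 13.0 through 40.0 to 92.3 CPM in SER embryos. Stag2, at chrX:42149317-42277185, ran from 0.984 through 68.8 to 286 CPM in control and from 18.7 through 82.0 to 343 CPM in SER embryos. The lowest of these is a single count in control embryo 12, whose own profile did not stand apart. The ranges of both genes overlapped between groups, and the log2 fold changes were 0.25 ± 0.29 (SE, 95% interval -0.34 to 0.84) for Stag1 and 0.48 ± 0.41 (SE, 95% interval -0.35 to 1.31) for Stag2.

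Per kilobase of exon, Stag1 made up 31.3% ± 20.3 (SD, n = 16) of the Stag1 and Stag2 level in control and 26.1% ± 13.9 (SD, n = 15) in SER embryos. Stag2 was thus the higher of the pair in most embryos, and Stag1 was higher in 2 of 31, one of them control embryo 12 at 91.8%. With the longest transcript as the length in place of all exon bases, Stag1 was higher in 6 of 31. The difference between the groups was smaller than the spread within either of them.

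Nipbl, the loader gene at chr15:8290617-8444463, ran from 53.4 through a median of 238 to 361 CPM in control embryos and from 129 through 235 to 350 CPM in SER embryos. The SER range lay inside the control range, and the log2 fold change was 0.11 ± 0.24 (SE, 95% interval -0.37 to 0.59). Wapl, the release factor at chr14:34673928-34747983, ran from 429 through 619 to 807 CPM in control and from 228 through 668 to 961 CPM in SER embryos. It had the smallest standard error of the 10 genes, with a log2 fold change of 0.04 ± 0.17 (SE, 95% interval -0.30 to 0.38).

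Pds5a, at chr5:65605721-65698273, was the other cohesin gene with an unadjusted p under 0.05. It ran from 6.04 through a median of 51.1 to 98.8 CPM in control and from 8.57 through 91.1 to 156 CPM in SER embryos, with means of 55.9 ± 29.5 (SD, n = 16) and 90.9 ± 35.4 (SD, n = 15). The groups overlapped, with 13 of 15 SER embryos above the control median and 5 above the highest control embryo. The log2 fold change was 0.66 ± 0.30 (SE, 95% interval 0.06 to 1.27), and the edgeR p was 0.0320 before and 0.809 after adjustment. Limma voom called Pds5a with all embryos (log2 fold change 0.85, adjusted p = 0.0236) and without the 3 that stood apart (0.84, adjusted p = 0.0199). Those fits called 9.89% and 11.7% of all genes tested, and they were the only 2 of 18 alternatives to call Pds5a. Without the 3 embryos edgeR gave 0.69 ± 0.24 (SE, p = 0.00724, adjusted p = 0.568). Without control embryos 1 to 4 and SER embryos 1 to 3 it gave 0.59 ± 0.32 (SE, p = 0.0721, adjusted p = 0.851).

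Its paralog Pds5b, at chr5:150673739-150810690, had an estimate of the opposite sign. It ran from 24.1 through a median of 78.1 to 155 CPM in control and from 13.5 through 64.1 to 160 CPM in SER embryos. These ranges overlap almost wholly, and the log2 fold change was -0.35 ± 0.29 (SE, 95% interval -0.94 to 0.24), which turned to 0.05 in limma voom. Per kilobase of exon, Pds5a made up 24.4% ± 8.90 (SD, n = 16) of the summed Pds5a and Pds5b level in control and 40.8% ± 13.8 (SD, n = 15) in SER embryos. The control embryos ran from 11.3% to 39.0% and the SER embryos from 18.0% to 72.7%, so the groups overlapped. Pds5a was the higher of the pair in 0 of 16 control and 3 of 15 SER embryos. Its exons hold 19335 bases in all but 8934 in the longest transcript, and with the latter the shares were 34.0% ± 10.9 (SD, n = 16) and 52.0% ± 14.1 (SD, n = 15). Pds5a was then the higher of the pair in 2 of 16 control and 9 of 15 SER embryos. No test was made of these shares.

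**Figure D3:**
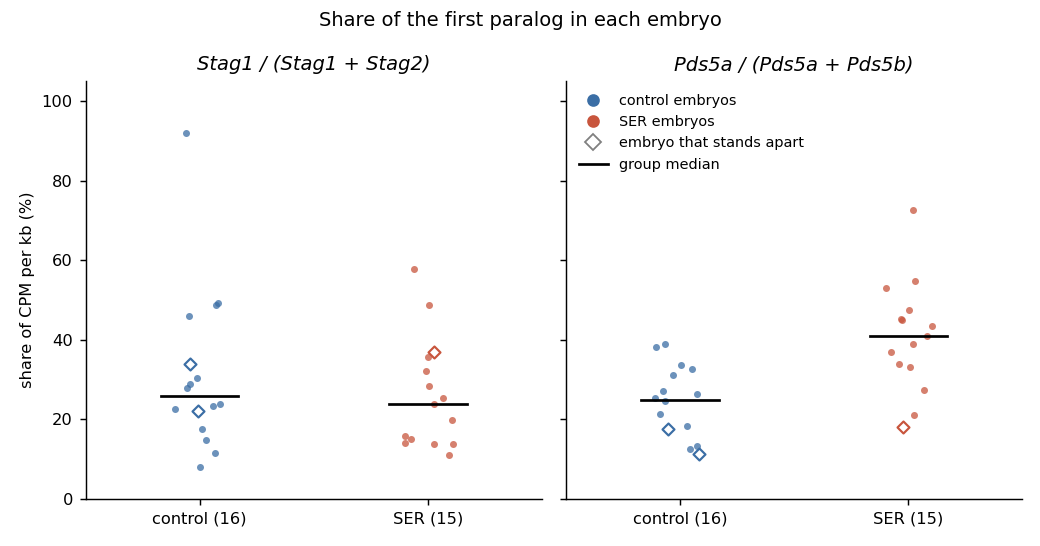
Share of Stag1 in the Stag1 and Stag2 level (left) and of Pds5a in the Pds5a and Pds5b level (right), in percent of CPM per kilobase of exon, with a point for each embryo, a black bar at the group median and diamonds for the 3 embryos that stand apart. The Pds5a share has means of 24.4% in control and 40.8% in SER embryos with overlapping ranges, and the Stag1 share does not separate the groups.

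Ctcf, the boundary factor gene at chr8:105636568-105682922, ran from 127 through a median of 757 to 1359 CPM in control and from 206 through 704 to 1146 CPM in SER embryos. The SER range lay inside the control range, and the log2 fold change was -0.0088 ± 0.24 (SE, 95% interval -0.49 to 0.47). Control embryos 1 to 4 lay at 127 to 346 CPM and the other 12 at 623 to 1359 CPM with no overlap. SER embryos 1 to 3, at 549 to 704 CPM, lay within the range of the other 12 SER embryos. Without those 7 embryos the Ctcf log2 fold change was -0.23 (edgeR adjusted p = 0.921). In the annotation, 114 bases of its exons, 2.35%, overlap Agrp on the other strand and 370 bases overlap the noncoding gene Gm5914. Whether reads were counted by strand is not given in the sources used here, so reads from those bases cannot be assigned with certainty.

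The order of the 10 genes by level per length was the same with both lengths of gene. In CPM per kilobase of exon over all 31 embryos, Ctcf was highest at 151 ± 60.9 (SD), followed by Wapl at 95.6 ± 23.7 (SD), Rad21 at 59.2 ± 24.0 (SD) and Smc3 at 36.4 ± 18.5 (SD). Nipbl at 24.7 ± 9.42 (SD), Smc1a at 13.3 ± 4.70 (SD) and Stag2 at 11.6 ± 9.74 (SD) came next. Pds5b at 8.05 ± 4.04 (SD), Pds5a at 3.77 ± 1.89 (SD) and Stag1 at 3.38 ± 1.72 (SD) were lowest. In these means the kleisin RNA was above that of either SMC subunit, and the regulators Ctcf and Wapl were above every subunit of the ring. The counts merge reads from transcript ends, which carry an identifier, with internal reads. How far each kind scales with gene length was not tested, here or for the paralog shares.

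Neighbours in this order differed beyond their spread in 3 of 9 steps, where the mean log2 difference within an embryo was larger than its SD. Wapl was above Rad21 in 30 of 31 embryos, Nipbl above Smc1a in 28 and Pds5b above Pds5a in 28. With the longest transcript, the steps beyond the spread were Ctcf over Wapl, in 26 of 31 embryos, and Wapl over Rad21, in 29. Rad21 was above Smc3 in 25 of 31 embryos, but the mean log2 difference of 1.07 had an SD of 1.49 that includes the 3 embryos with almost no Smc3.

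**Figure D4:**
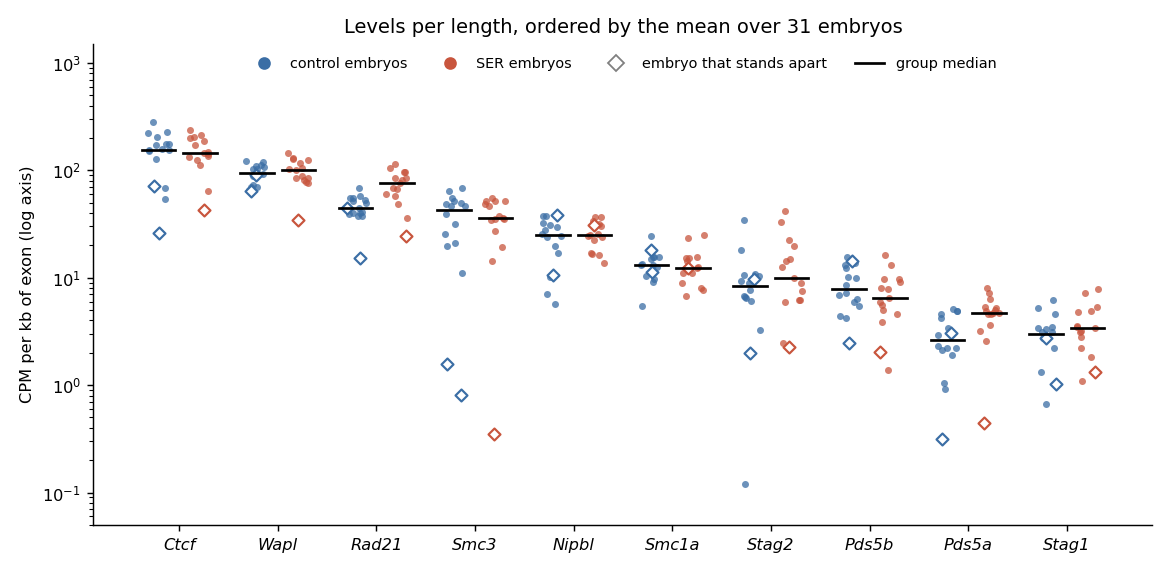
CPM per kilobase of exon on a log axis for the 10 genes in order of their mean over the 31 embryos, control in blue and SER in red, bars at the group medians and diamonds for the 3 embryos that stand apart. The means fall from 151 for Ctcf to 3.38 for Stag1, and most neighbours overlap.

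Embryos of one group differed little in Wapl and Rad21 and most in Stag2. The coefficient of variation (SD over mean) of CPM in control and SER embryos was 20.8% and 28.3% for Wapl, 25.9% and 34.6% for Rad21, and 32.0% and 39.7% for Smc1a. With the 3 embryos that stood apart left out, Wapl was at 20.1% and 21.7% and Rad21 at 19.3% and 29.1%. With all embryos, these 3 genes were below the medians over all tested genes, 61.1% in control and 59.8% in SER embryos. So were Smc3, Stag1, Nipbl, Pds5a, Pds5b and Ctcf, with Nipbl at 46.4% and 29.7% and Stag1 at 47.5% and 52.5%. Smc3 was at 58.3% and 43.6%, and at 41.9% and 32.8% without the 3 embryos that stood apart. Stag2 was at 83.2% and 81.0%, above the medians over all genes in both groups. Those medians cover tested genes of every level, and no comparison with genes of like level was made.

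Across the 31 embryos, the levels of the SMC subunits did not follow that of Rad21, while those of the STAG subunits did so in part. Spearman's rho with Rad21 was 0.0383 for Smc3 and -0.297 for Smc1a, against a median of 0.0194 over the other 8570 tested genes. It was higher for Pds5a at 0.597, Stag2 at 0.498, Wapl at 0.463 and Stag1 at 0.423, which placed Pds5a 94th of 8570. Ctcf was at -0.237 and Nipbl at -0.336. Without the 3 embryos that stood apart, Smc3 was at -0.187, Smc1a at -0.242, Nipbl at -0.221 and Ctcf at -0.487, while Pds5a was at 0.513, Stag2 and Wapl at 0.390 and Stag1 at 0.319. With the group means removed, Wapl was at 0.523, Stag1 at 0.480, Stag2 at 0.466, Pds5b at 0.395 and Pds5a at 0.355, and Smc3 was at -0.0681 and Smc1a at -0.281. These are descriptions, since the embryos share their library chemistry and a sum of counts that ties all genes of a library together.

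Among the other pairs, Stag2 and Wapl had the highest rho at 0.617, and Stag2 and Pds5b were at 0.594. Smc1a and Nipbl were at 0.485, while Smc3 and Nipbl were at -0.433. Smc3 and Ctcf were at 0.495, and at 0.343 without the 3 embryos that stood apart. The tested genes outside the 10 most like Rad21 were Gpcpd1 with rho of 0.806, Eif4g2 with 0.800, Zfp263 with 0.754, Myorg with 0.750 and Kars with 0.734. Eif4g2 encodes a translation initiation factor and Kars the lysyl-tRNA synthetase. Their edgeR log2 fold changes ran from 0.24 ± 0.27 (SE) for Gpcpd1 to 0.95 ± 0.37 (SE) for Zfp263, and none passed the threshold (adjusted p = 0.731 for Zfp263).

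Of 16 other regulators of cohesin, 15 were tested, none passed an adjusted p of 0.1 in edgeR, and 8 were higher and 7 lower in SER embryos. Their median log2 fold change was 0.03, and -0.05 without the 3 embryos that stood apart. Chtf8, part of the clamp loader that supports cohesion at the fork, was at 58.5 ± 32.1 CPM (SD, n = 16) in control and 97.2 ± 47.0 CPM (SD, n = 15) in SER embryos. Its log2 fold change was 0.73 ± 0.31 (SE), with an edgeR p of 0.0224 before and 0.780 after adjustment, and 0.59 ± 0.35 (SE) without control embryos 1 to 4 and SER embryos 1 to 3. The fork protection genes Tipin and Timeless had estimates of -0.31 ± 0.24 (SE) and 0.28 ± 0.37 (SE), the helicase Ddx11 -0.30 ± 0.51 (SE) and the replisome gene Wdhd1 0.30 ± 0.33 (SE). None of these was beyond 2 standard errors except Chtf8. Tipin turned to 0.17 ± 0.20 (SE) without control embryos 1 to 4 and SER embryos 1 to 3. Chtf18, the partner of Chtf8 named here after its values were seen, had 0, 1 and 0 counts in control embryos 3 and 4 and SER embryo 15, against at least 21.5 CPM in the other 28. Those embryos were picked by their whole profile, and 359 of the 8571 tested genes, 4.19%, were below the other 28 in all 3.

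The genes of the meiotic rings split into a pair that was nearly absent and others that were present. Rec8, the meiotic kleisin that holds oocyte chromosomes together, had no count in 23 of 31 embryos, and Rad21l, the other meiotic kleisin, had none in 23. Their mean CPM in control embryos was 0.889 and 0.528, where Rad21 was at 193. The meiotic partners Smc1b, at 55.0 ± 37.7 CPM (SD, n = 16) in control embryos, and Stag3, at 21.5 ± 12.9 CPM (SD, n = 16), were present. Their log2 fold changes were -0.16 ± 0.31 (SE) and -0.31 ± 0.35 (SE), and that of Meikin, a protector of centromeric cohesion in meiosis, was -0.45 ± 0.58 (SE). All 3 tested genes of this list had estimates below 0, with a median of -0.31, and none passed. The median was -0.14 without the 3 embryos that stood apart, and Smc1b was at -0.0041. Leaving out control embryo 1 alone turned Meikin to 0.19, and leaving out control embryo 2 alone turned Smc1b to 0.042. Ctcfl, the germ cell paralog of Ctcf, had no count in 12 of 31 embryos.

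Of 12 genes for the cleavage or protection of cohesin and the chromosomal passenger complex that works beside it, all were tested, none passed in edgeR, and 5 were higher and 7 lower with a median of -0.05. Securin, Pttg1, had the highest level at 1654 ± 1732 CPM (SD, n = 16) in control and 1106 ± 1379 CPM (SD, n = 15) in SER embryos, a log2 fold change of -0.62 ± 0.47 (SE). Its spread between embryos was as large as its mean, and single libraries set its value. SER embryo 15 was at 5617 CPM against at most 1993 CPM in the other SER embryos, and without it the log2 fold change was -1.16 ± 0.42 (SE, edgeR p = 0.00879, adjusted p = 0.347). Without control embryo 14 it was -0.28 ± 0.44 (SE), and without the 3 embryos that stood apart -1.01 ± 0.42 (SE, edgeR p = 0.0219, adjusted p = 0.650). Leaving out control embryos 1 to 4 and SER embryos 1 to 3 gave -0.25 ± 0.54 (SE, edgeR p = 0.639, adjusted p = 0.982) for Pttg1. Separase, Espl1, had a log2 fold change of 0.37 ± 0.23 (SE), and shugoshin, Sgo1, which shields centromeric cohesin, -0.34 ± 0.26 (SE). The passenger kinase Aurkb was at 0.54 ± 0.28 (SE) and its partner survivin, Birc5, at -0.44 ± 0.22 (SE), or -0.26 without control embryo 3, so 2 genes of that complex had estimates of opposite sign. Without control embryos 1 to 4 and SER embryos 1 to 3, Espl1 was at 0.13, Sgo1 at 0.014, Aurkb at 0.51 and Birc5 at -0.058.

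The other SMC complexes gave the same count of calls, 0 in edgeR. Of 8 condensin genes, 4 were higher and 4 lower with a median of 0.03, or -0.03 without the 3 embryos that stood apart. The condensin kleisin Ncaph was at 19.7 ± 16.2 CPM (SD, n = 16) in control and 37.6 ± 36.6 CPM (SD, n = 15) in SER embryos, with a log2 fold change of 0.93 ± 0.43 (SE, edgeR p = 0.0361, adjusted p = 0.811). Without SER embryo 13 it was 0.58 ± 0.40 (SE, edgeR p = 0.157, adjusted p = 0.880). Ncapd3 was at 0.41 ± 0.32 (SE), Ncapd2 at 0.36 ± 0.38 (SE), and the ATPases Smc2 and Smc4 at -0.34 ± 0.42 (SE) and -0.33 ± 0.22 (SE). Leaving out control embryos 1 to 4 and SER embryos 1 to 3 gave 1.13 for Ncaph, 0.15 for Ncapd3 and 0.017 for Ncapd2. Smc2 was then at -0.87 and Smc4 at -0.62 ± 0.21 (SE, edgeR p = 0.00662, adjusted p = 0.639). Of 7 genes of the SMC5/6 complex, 6 were tested, with 1 higher and 5 lower and a median of -0.23. Nsmce1, its RING subunit, was at 61.9 ± 40.6 CPM (SD, n = 16) in control and 39.6 ± 20.9 CPM (SD, n = 15) in SER embryos, a log2 fold change of -0.73 ± 0.32 (SE, edgeR p = 0.0267, adjusted p = 0.809). Control embryo 4 was at 178 CPM, and without it the estimate was -0.50 ± 0.29 (SE, edgeR p = 0.0932, adjusted p = 0.868). Without the 3 embryos that stood apart it was -0.46 ± 0.29 (SE, edgeR p = 0.120, adjusted p = 0.812), and without control embryos 1 to 4 and SER embryos 1 to 3 it was -0.14 ± 0.29 (SE). Smc5 at -0.31 ± 0.35 (SE), Smc6 at -0.23 ± 0.16 (SE), Nsmce2 at -0.22 ± 0.25 (SE) and Nsmce3 at -0.11 ± 0.19 (SE) had estimates below 0, and Eid3 had no count in 27 embryos. Nsmce2 turned to 0.21 without control embryos 1 to 4 and SER embryos 1 to 3, where Smc5 was at -0.10, Smc6 at -0.25 and Nsmce3 at -0.0041.

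**Figure D5:**
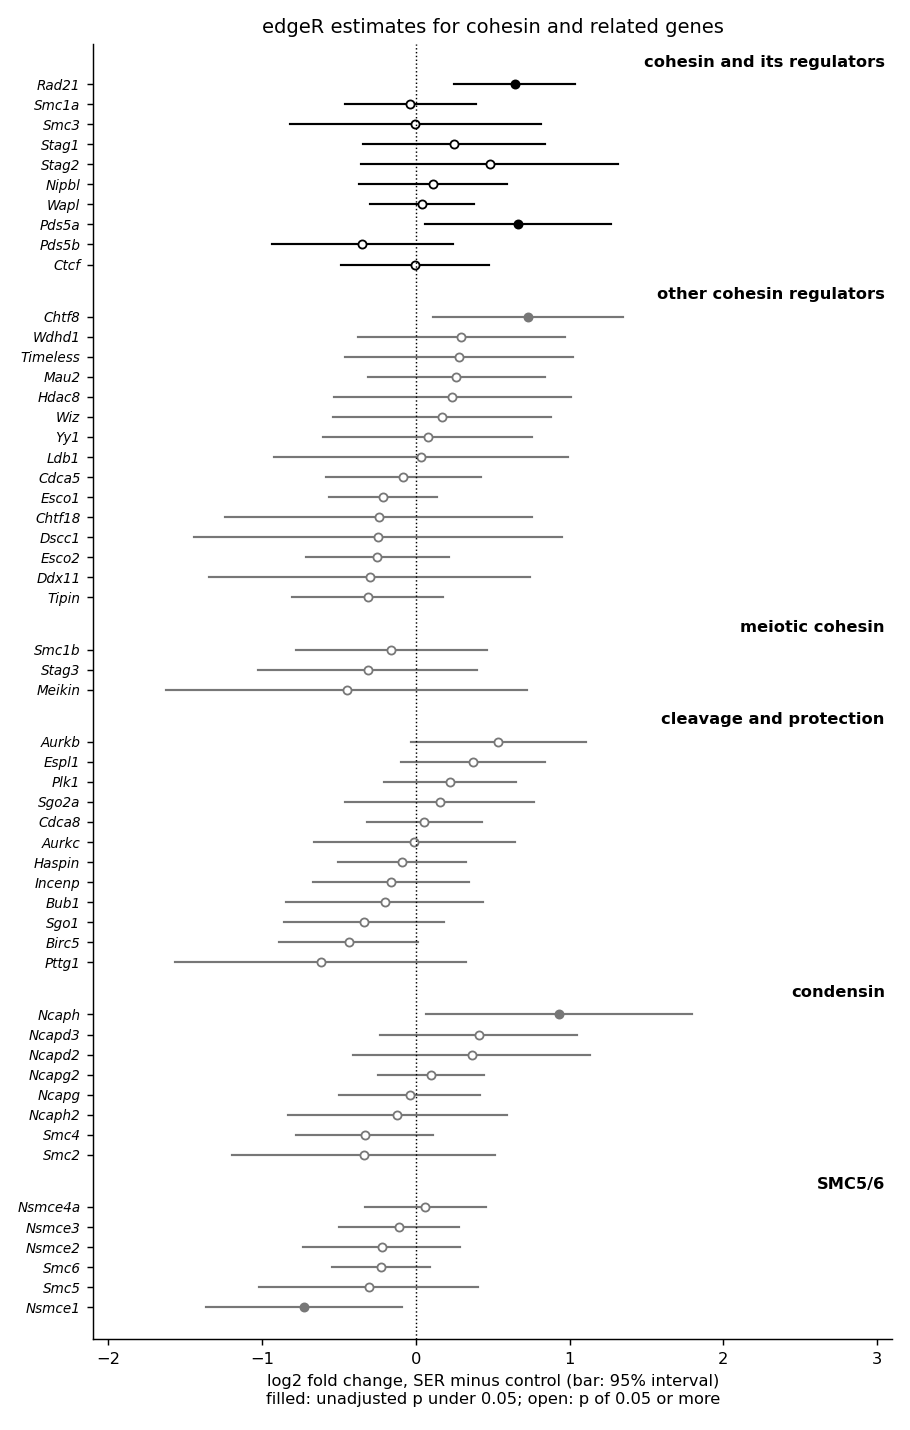
Log2 fold changes of SER over control from edgeR with their 95% intervals, for the 10 cohesin genes in black and the genes of 5 related lists in grey, filled where the unadjusted p is under 0.05. Rad21, Pds5a, Chtf8 and Ncaph are filled above 0 and Nsmce1 below 0, and no gene passes after adjustment.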

How the data were processed

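RNA of single 2-cell embryos, 16 control and 15 SER, was sequenced as described in the labels. The authors split the reads into those that carry a molecular identifier and internal ones, used STAR for alignment of each kind, collapsed duplicates (UMI-tools for the former, Picard for the latter) and ran featureCounts on the merged alignments. The labels name mm10, and the annotation, the strand setting and the versions are not given in the sources used here. The authors deposited whole-number counts described as raw, and so taken as not yet batch corrected. Depth was 532945 to 3088396 counts per embryo. As internal reads lack an identifier, the error of a value is at least its counting error.

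From these counts, groups were compared with edgeR 4.0.16 (R 4.3.3; quasi-likelihood, TMM, no covariates, filterByExpr at 10 counts and a total of 15), and an adjusted p under 0.1 was called. Standard errors were derived from the estimate and the F statistic (absolute estimate over root F). CPM used each embryo's total count. Gene lengths and positions were those of GENCODE vM21 (GRCm38), where 20356 of 20544 symbols matched. Promoters were those of RefSeq on GRCm38.p6. Correlations with library size used 100000 permutations, 2-sided. No 2 libraries were identical. Named genes were the 10 cohesin genes, the genes past the threshold and up to 5 with the largest change in each list, list genes with few counts, and the 5 genes most like Rad21 by Spearman correlation of log2 CPM. The genes and lists were chosen with earlier results of these data known. Alternatives were DESeq2 1.42.0, limma 3.58.1 voom with quality weights, other size factors and filters, robust dispersion, 5 surrogate variables (sva 3.50.0), 3 estimated clusters, the library size, thinned counts, a length trend, the replicate block and leaving out embryos. The exclusion of 3 embryos, whose median correlation was under 0.6, was chosen after seeing the data, as was that of control embryos 1 to 4 and SER embryos 1 to 3. The edgeR, limma voom and DESeq2 fits with the group alone were tested on simulated data, and the other alternatives were not.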

Additional observations from a re-analysis of the deposited data

How the results depend on the processing

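The direction of the Rad21 difference held under each alternative and its call did not, as given above. Called genes numbered 29 with DESeq2, 41 with estimated clusters, 61 with surrogate variables, 504 without a filter, 848 with limma voom and, without the 3 embryos that stood apart, 0 in edgeR, 20 with DESeq2 and 998 with limma voom. Without control embryos 1 to 4 and SER embryos 1 to 3, edgeR called 1 gene, Pygm, named after its values were seen, and Rad21 was at 0.59. Called cohesin genes numbered 1 with estimated clusters (Rad21 0.64), without a filter (Rad21 0.67) and with DESeq2 without the 3 embryos (Rad21 0.65), and 2 with limma voom (Rad21 0.72) and with limma voom without the 3 embryos (Rad21 0.71). The cause of these moves was not tested. With library size as a covariate Rad21 was at 0.42 and with surrogate variables at 0.46.

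Cohesin genes near 0 changed sign. Smc1a was at 0.015 without the 3 embryos, 0.0067 with DESeq2 without them, 0.15 with library size, 0.027 with limma voom, 0.022 with limma voom without the 3 embryos and 0.10 with surrogate variables. Smc3 was at 0.037 with estimated clusters, 0.029 with library size, 0.14 with limma voom, 0.068 with limma voom without the 3 embryos and 0.0015 without a filter. Ctcf was at 0.16 with library size, 0.080 with limma voom, 0.050 with limma voom without the 3 embryos, 0.088 with the replicate block and 0.030 with block and length trend. Wapl was at -0.078 with the length trend removed and -0.062 with block and length trend. In limma voom Nipbl was at -0.12 and Pds5b at 0.051, and without the 3 embryos at -0.14 and 0.055. Without control embryos 1 to 4 and SER embryos 1 to 3, Nipbl was at -0.021 and Wapl at -0.035. Leaving out 1 embryo at a time, Smc1a ran from -0.13 to 0.032, Smc3 from -0.11 to 0.094, Wapl from -0.0094 to 0.099 and Ctcf from -0.10 to 0.076, and in each of these 31 fits edgeR called 0 genes. With the longest transcript, Stag1 was at 6.44 and Pds5a at 8.15 CPM per kilobase.

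The labels do not say what a replicate number stands for. Same-numbered embryos correlated between -0.354 and 0.478, with 8 of 15 pairs over 0.1 and 2 SER embryos best with their own number. With the replicate block, 0 of 8361 genes were called and Rad21 was at 0.63 (edgeR adjusted p = 0.999). Of the 10 genes, counting error weighs most on Stag1, whose median of 36.8 CPM is the lowest, and on single values near 1 count.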
